A study of Mus musculus with 14 samples.

Results

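The genes described here encode 46 subunits of 3 chromatin complexes, NuRD (12 genes), PRC1 (19 genes) and BAF (15 genes), followed by symbol through an RNA-seq series on the passage of mouse embryonic stem cells (ESCs) to extraembryonic endoderm (XEN) cells. The members were a fixed list of symbols, each looked up in the deposited table of 23174 gene rows. All 46 were found once, none was listed at 0 in any of the 14 libraries, and 43 stood at 1 FPKM or more in every library. FPKM is a read count scaled to transcript length and library size. Cbx8, Phc3 and Smarca2 stood under 1 FPKM in some libraries. All 46 passed the filter on low values in each of the 9 comparisons.

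The series asked, by its title, whether Zfp281, a zinc finger transcription factor, holds ESCs back from becoming XEN cells. ESC lines on a 129S1/SVImJ background were sampled at 3 stages, with 1 library per line and stage. WT3 is wild type, KO3.34 and KO2.6 are Zfp281 knockouts (the cell line field gives 2.26 for the second), and Rescue3.34 is KO3.34 with Zfp281 put back. How the knockouts were made and what drives the rescue gene are not given in the sources used here. Stage ESC is passage 0, grown without feeders in serum and LIF. Stage cXENp1 is passage 1, after 48 h in XEN medium with activin A (10 ng/mL) and retinoic acid (0.01 µM). Stage cXENp3 is passage 3, on gelatin again after a passage on iMEF feeders. XENB1 (129S1) and XEN5 (129S1/SVImJ) are wild-type established XEN lines, kept in medium conditioned by embryonic fibroblasts, with 1 library each. Each line is a single line, so the replicates of a group are lines. WT3 and Rescue3.34 together are called Zfp281-present. For KO against Zfp281-present lines, the spread behind the p-values is that between the 2 lines of a group, pooled over the 3 stages. These fits take the libraries of a line at different stages, and the related lines KO3.34 and Rescue3.34, as independent.

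NuRD joins a nucleosome-remodelling ATPase (Chd4 or Chd3) to histone deacetylases and holds 1 of the methyl-CpG-binding-domain proteins Mbd2 and Mbd3, of which Mbd3 is known for its part in the exit from pluripotency. PRC1 is a ubiquitin ligase for histone H2A, built on Ring1 or Rnf2 (RING1B) and a Pcgf protein. Canonical forms add a Cbx protein, which reads trimethylated H3K27, and a Phc protein, while variant forms add Rybp or Yaf2 in the place of Cbx. BAF is the SWI/SNF remodeller around the ATPase Smarca4 or Smarca2, and the ESC form is known for Smarca4, Smarcc1, Smarcd1, Arid1a and Actl6a. In all 3 complexes, paralogs compete for a position, and the set of paralogs is known to change when ESCs differentiate.

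The labels were checked first. Zfp281 stood at 28.5, 27.7, 3.92 and 0 FPKM in WT3, Rescue3.34, KO3.34 and KO2.6 ESCs, and this order of lines holds for every list of 4 values below. It stood at 33.96, 38.6, 3.96 and 0.559 FPKM at cXENp3, and at 10.6 and 12.5 FPKM in XENB1 and XEN5. The 6 ESC markers (Pou5f1, Nanog, Sox2, Esrrb, Zfp42 and Tdgf1) summed to between 2575 and 3207 FPKM in ESCs, to 3626 in WT3 and 2109 in Rescue3.34 at cXENp3, and to 415 in KO3.34 and 91.7 in KO2.6. The 7 XEN markers (Gata4, Gata6, Sox17, Sox7, Pdgfra, Foxa2 and Dab2) summed to 1143 and 928 FPKM in the KO lines at cXENp3, 5.08 and 13.3 in WT3 and Rescue3.34, and 1008 and 1305 in the XEN lines. In ESCs they summed to 0.996, 1.11, 5.69 and 46.7 FPKM, so KO2.6 already carried some XEN marker transcript as ESCs. So the 2 KO lines labelled cXENp3 carried XEN markers near the XEN lines' sums, whereas WT3 and Rescue3.34 under the same label carried few, with ESC markers above the ESC range in WT3 and below it in Rescue3.34. Fibroblast markers (8 genes, among them Col1a1, Col3a1, Dcn and Lum) summed to 1252 FPKM in Rescue3.34 at cXENp3, 35.3 in WT3 (Lum at 0), 272 and 347 in the KO lines and 618 and 542 in the XEN lines, against 1.95 to 19.4 in ESCs. Their part in the results below was not tested. Library descriptions begin with JH in the ESC libraries of WT3, Rescue3.34 and KO3.34 and with XH in the rest, so the prefix runs with stage except in KO2.6, whose 3 libraries are all XH.

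Promoters are shown for 4 members that differed between ESCs and XEN lines, 2 that were high in ESCs (Cbx7 and Phc1) and 2 that were low there (Cbx8 and Smarca2). Each is the 250 bases before the transcription start in RefSeq, build GRCm38.p6, read 5′ to 3′ along the gene. Capitals mark a GGGGAGGG run, a G-rich motif of the kind that Zfp281 is known to bind.
Cbx7 (chr15:79932647-79932896, minus strand): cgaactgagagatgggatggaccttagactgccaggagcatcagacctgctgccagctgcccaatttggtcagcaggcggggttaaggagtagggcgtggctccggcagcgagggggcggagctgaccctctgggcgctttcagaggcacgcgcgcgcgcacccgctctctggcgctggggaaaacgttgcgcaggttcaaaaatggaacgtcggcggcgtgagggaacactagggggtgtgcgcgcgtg
Phc1 (chr6:122340228-122340477, minus strand): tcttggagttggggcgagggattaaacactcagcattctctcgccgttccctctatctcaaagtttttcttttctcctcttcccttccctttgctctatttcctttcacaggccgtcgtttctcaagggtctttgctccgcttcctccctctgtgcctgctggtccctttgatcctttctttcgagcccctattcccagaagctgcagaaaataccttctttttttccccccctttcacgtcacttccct
Cbx8 (chr11:119040914-119041163, minus strand): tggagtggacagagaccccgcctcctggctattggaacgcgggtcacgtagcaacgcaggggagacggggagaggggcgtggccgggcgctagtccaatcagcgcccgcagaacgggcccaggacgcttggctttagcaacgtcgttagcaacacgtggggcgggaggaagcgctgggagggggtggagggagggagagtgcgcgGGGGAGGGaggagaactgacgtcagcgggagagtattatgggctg
Smarca2 (chr19:26604910-26605159, plus strand): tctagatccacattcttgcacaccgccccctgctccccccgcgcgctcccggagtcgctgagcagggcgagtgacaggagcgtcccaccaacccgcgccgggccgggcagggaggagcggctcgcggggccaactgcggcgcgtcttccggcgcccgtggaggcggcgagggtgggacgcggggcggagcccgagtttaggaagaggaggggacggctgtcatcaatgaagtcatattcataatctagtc
Bases G and C made up 64.8% of the Cbx7 window, 66.4% of Cbx8, 68.4% of Smarca2 and 49.6% of Phc1, against a median of 52.4% over 32851 windows. The motifs searched, on both strands and none containing another, were AGATAA for GATA factors, ACAATG for SOX factors, the octamer ATGCAAAT for POU factors, and GGGGAGGG. Of these, only GGGGAGGG occurred in the 4 printed windows, once, in Cbx8, beginning 45 bases before the start. Symbols of 36 members matched the table, with 48 windows among them. GGGGAGGG occurred in 10 of these 48 windows (20.8%) and in 9.69% of all windows, AGATAA in 2 (4.17%, against 9.99%), ACAATG in 2 (4.17%, against 10.7%) and ATGCAAAT in 2 (4.17%, against 1.6%). A match of letters is not a measured binding site.

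Established XEN lines differed from the 4 ESC libraries at several paralog positions, with Pcgf5, Cbx8, Yaf2, Mbd2 and Smarca2 higher and Cbx7 and Phc1 lower. Each change is given as a log2 difference on the scale log2(FPKM + 1), with its standard error (SE), and this scale shrinks the change of weakly expressed genes. A gene was called at an adjusted p under 0.05 from limma over all genes tested. Of the 46 members, 12 were higher in XEN lines (22.2% of all genes tested were called higher) and 10 were lower (19.7% of all genes). In NuRD, Chd3, Mbd2 and Rbbp7 were higher and Hdac1 lower. In PRC1, Bmi1, Pcgf5, Cbx8 and Yaf2 were higher and Pcgf6, Cbx6, Cbx7, Phc1, Rybp and L3mbtl2 lower. In BAF, Smarca2, Smarcc2, Smarcd3, Arid1b and Brd9 were higher and Smarcc1, Smarcd1 and Actl6a lower. The members' share of calls was 47.8% against 41.9% of all genes, with a median difference of -0.07 against -0.02, so the list as a whole stood near the background. Under quantile normalization 10 were higher and 15 lower. Of the fibroblast markers, 6 of 7 tested were higher in XEN lines as well. The count of members fell when XENB1, XEN5 or WT3 was left out, and so did the calls over all genes. Without WT3 it was 14, with 4102 calls over all genes against 5181. With XENB1 or XEN5 left out, the lone XEN library was assumed to vary as the ESC lines do. Chd3, Mbd2, Pcgf5, Cbx7, Phc1 and Yaf2 kept their calls in every alternative run, as did Cbx8 and Smarca2 wherever they were tested. Pcgf6, Cbx6, Smarcc1, Smarcd3 and Brd9 each lost theirs in 7 of 12 alternatives, and Rybp in 9 of 12.

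**Figure D1:**
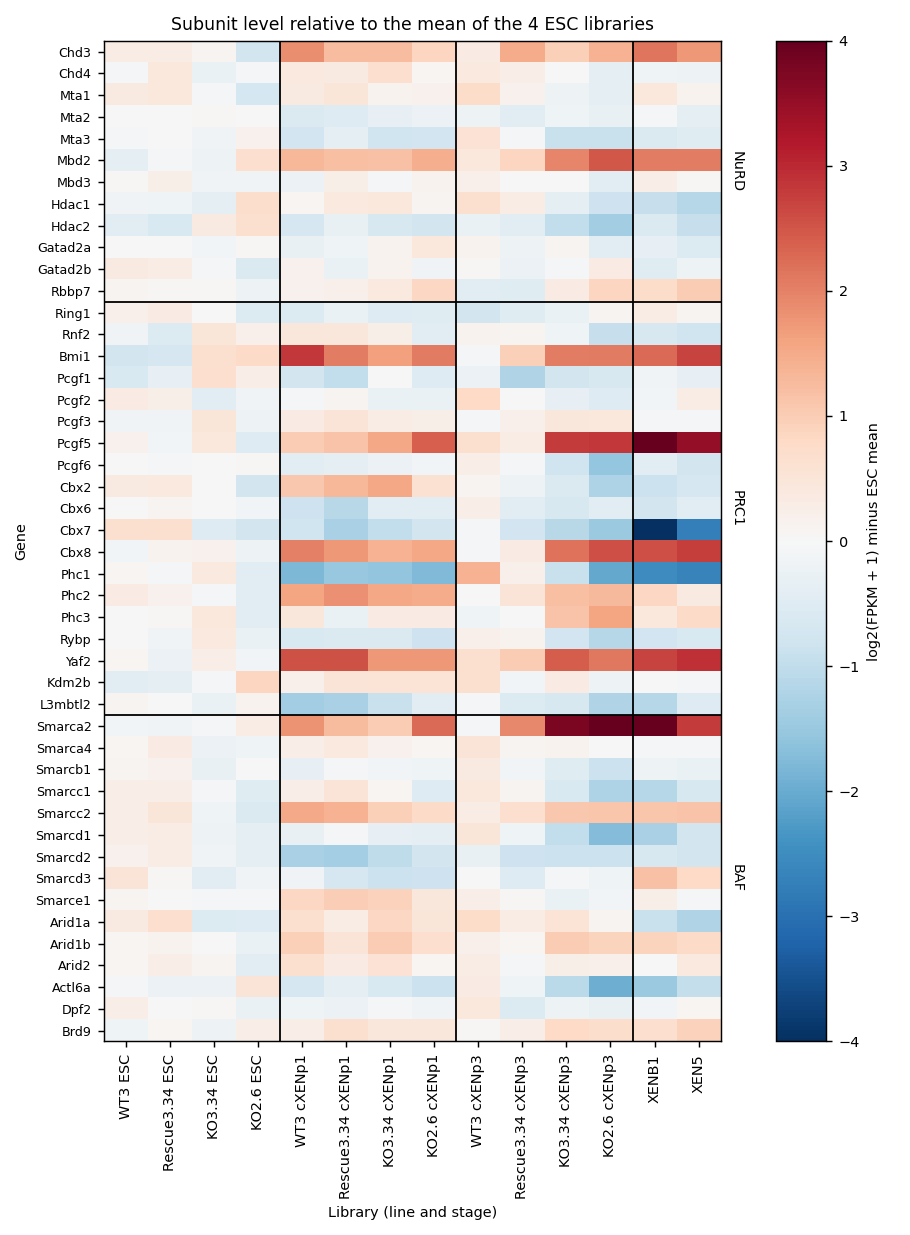
Level of each of the 46 members (rows, grouped by complex) in each of the 14 libraries (columns), as log2(FPKM + 1) minus the mean of the 4 ESC libraries, on a colour scale that ends at -4 and 4. Pcgf5, Cbx8, Yaf2, Mbd2 and Smarca2 are red and Phc1 is blue in the KO cXENp3 and XEN columns, while the WT3 and Rescue3.34 cXENp3 columns stay paler in these rows, apart from Phc1 in WT3 and Smarca2 in Rescue3.34.

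At cXENp3, where KO lines and Zfp281-present lines parted, 10 of 46 members were higher in KO lines (22.9% of all genes tested were called higher) and 13 were lower (19.0% of all genes). The higher members were Mbd2 and Rbbp7 of NuRD, Bmi1, Pcgf5, Cbx8, Phc2, Phc3 and Yaf2 of PRC1, and Smarca2 and Arid1b of BAF. The lower ones were Mta1, Mta3, Hdac1 and Hdac2 of NuRD, Pcgf2, Pcgf6, Cbx7, Phc1 and Rybp of PRC1, and Smarcb1, Smarcc1, Smarcd1 and Actl6a of BAF. Under quantile normalization 9 members were higher and 16 lower, and over all genes the split went from 3016 higher and 2512 lower to 2587 and 3101. The share called was 50% of members against 41.9% of all genes, and the medians were -0.20 and 0.01. All 6 ESC markers were lower and all 7 XEN markers higher in the same comparison, and 2 of 3 neural progenitor markers were called lower. Of the 8 fibroblast markers limma called 0 (0 also at an unadjusted p under 0.05). Their sums lay far apart in the Zfp281-present pair (35.3 FPKM in WT3, 1252 in Rescue3.34, against 272 and 347 in the KO lines). With that spread, the lack of calls cannot show that fibroblast content was alike. In bulk libraries, a smaller share of ESC-like cells and less of a transcript in each cell cannot be told apart. The calls rested on WT3 in particular: without it all but those of Pcgf5 and Cbx8 were lost, with Rescue3.34 assumed to vary like the other groups. Fewer members were also called without Rescue3.34, and calls over all genes fell in both settings. Of the 23 members called here and the 22 called in XEN lines against ESCs, 16 were common to both, which is 69.6% of the first and 72.7% of the second, and all 16 had the same sign. Over all genes the corresponding shares were 63.1% and 67.3%, with the same sign in 99.0%. These contrasts share no libraries, although the spread of the first was estimated with the ESC libraries included.

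**Figure D2:**
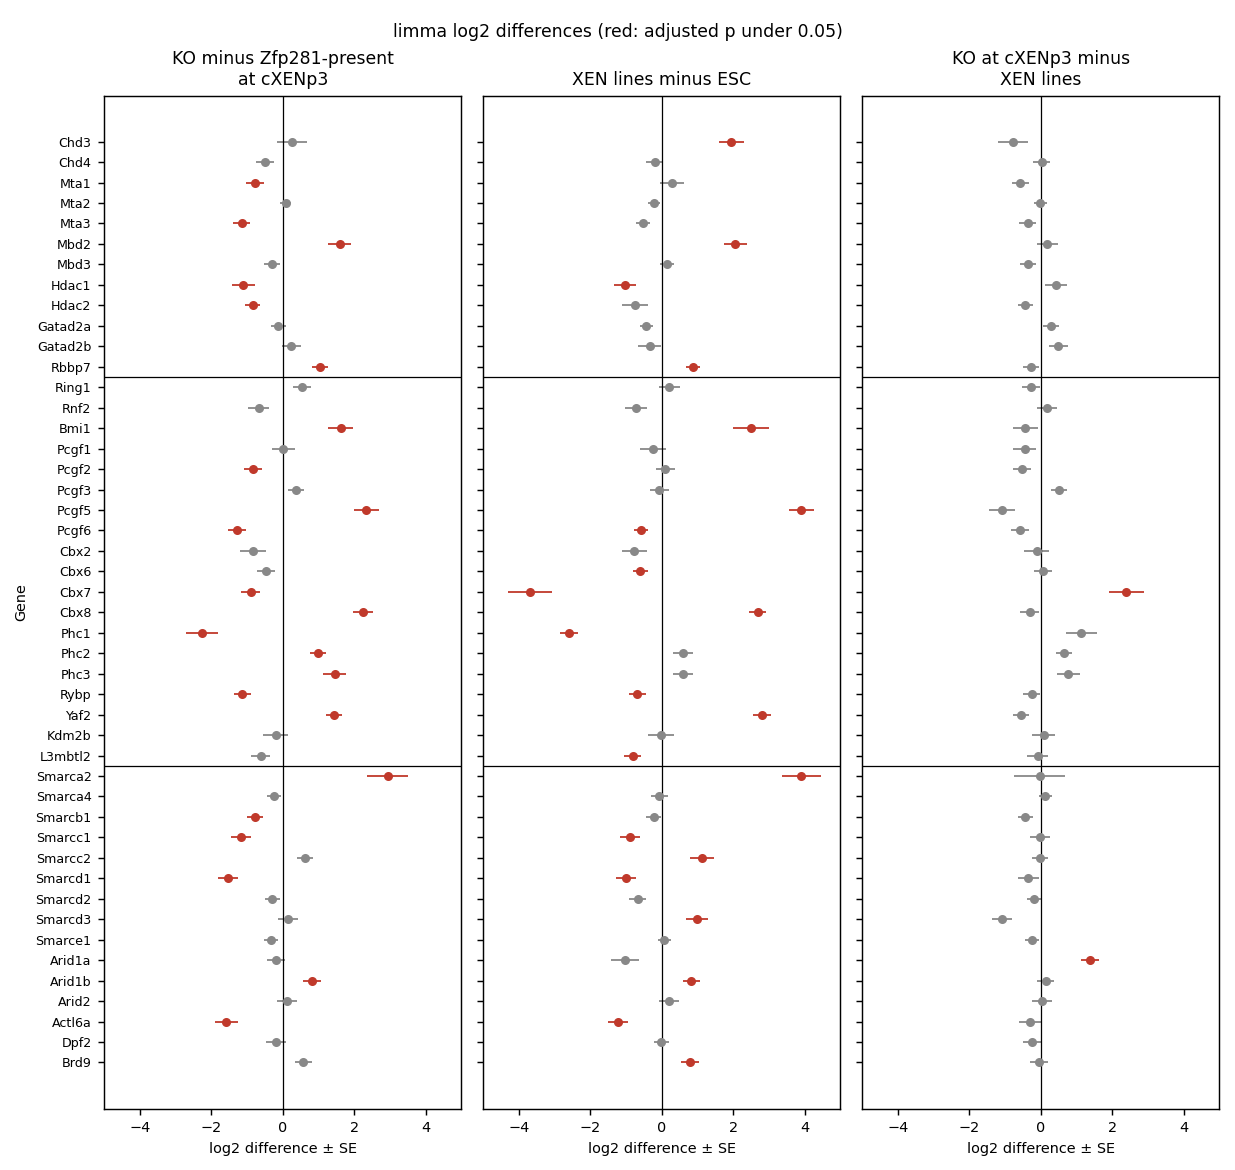
Log2 difference with its SE (points and bars, limma on log2(FPKM + 1)) for the 46 members in 3 comparisons, with called members in red: KO minus Zfp281-present lines at cXENp3, XEN lines minus ESCs, and KO lines at cXENp3 minus XEN lines. In the first panel 23 points are red, in the second 22, and in the third only Cbx7 and Arid1a.

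The NuRD position filled by Mbd2 or Mbd3 is described first. Mbd3, which binds methylated DNA weakly, had 70.3, 79.1, 61.2 and 61.4 FPKM in ESCs and 57.1, 79.6, 64.3 and 74.1 FPKM at cXENp1. It had 78.2, 66.5, 67.8 and 50.1 FPKM at cXENp3, and XENB1 and XEN5 had 80.7 and 69.7 FPKM. KO and Zfp281-present values overlapped at cXENp1 and cXENp3, and in ESCs both KO lines were the lower ones. No comparison called Mbd3 (XEN lines against ESCs 0.15 ± 0.20, adjusted p = 0.581, KO against Zfp281-present at cXENp3 -0.30 ± 0.22, adjusted p = 0.295). Mbd2, the paralog that binds methylated CpG sites, had 6.58, 8.25, 7.58 and 14.5 FPKM in ESCs and 23.5, 21.7, 21.3 and 26.1 FPKM at cXENp1. Its values at cXENp3 were 12.2, 16.8, 37.5 and 54.6 FPKM, and those of XENB1 and XEN5 were 40.1 and 39.8 FPKM. Every cXENp1 library was above every ESC library, both KO libraries at cXENp3 were above both Zfp281-present ones, and both XEN lines were above all ESC libraries. Mbd2 rose from ESC to cXENp1 (1.29 ± 0.31, adjusted p = 0.0149), was higher in KO than in Zfp281-present lines at cXENp3 (1.59 ± 0.31, adjusted p = 0.00343) and was higher in XEN lines than in ESCs (2.06 ± 0.32, adjusted p = 0.00172). The change from ESC to cXENp3 was not called different between KO and Zfp281-present lines (1.13 ± 0.44, adjusted p = 0.0884).

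Among the other NuRD enzymes, the ATPase Chd3 had 3.46, 3.47, 2.90 and 1.17 FPKM in ESCs and 12.2, 7.51, 7.52 and 5.52 FPKM at cXENp1. At cXENp3 it had 3.57, 9.01, 5.99 and 8.43 FPKM, and in XENB1 and XEN5 15.1 and 11.1 FPKM. It rose in every line from ESC to cXENp1 (1.30 ± 0.34, adjusted p = 0.0211) and was higher in both XEN lines than in any ESC library (1.95 ± 0.36, adjusted p = 0.00397). The KO and Zfp281-present values overlapped at cXENp3. Chd4, the main NuRD ATPase of ESCs, ranged from 54.9 to 114 FPKM over the 14 libraries and was called in no comparison.

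The deacetylases Hdac1 and Hdac2 form the catalytic pair of NuRD. Hdac1 had 93.2, 89.7, 77.8 and 165 FPKM in ESCs, 107, 134, 138 and 109 FPKM at cXENp1 and 160.5, 126, 76.8 and 56.9 FPKM at cXENp3. XENB1 and XEN5, at 52.8 and 45.9 FPKM, were the lowest of all libraries, and both KO lines were below both Zfp281-present lines at cXENp3. The differences were -1.03 ± 0.31, adjusted p = 0.0284 for XEN lines against ESCs and -1.10 ± 0.33, adjusted p = 0.0226 for KO against Zfp281-present lines at cXENp3. Hdac2 had 87.1, 76.6, 151 and 185 FPKM in ESCs, 73.4, 95.7, 75.4 and 69.7 at cXENp1 and 96.4, 87.8, 59.2 and 43.6 at cXENp3, with 77.3 and 61.5 FPKM in XENB1 and XEN5. KO lines were above Zfp281-present lines in ESCs and below them at cXENp3. Both differences were called (1.02 ± 0.21, adjusted p = 0.0468 in ESCs and -0.84 ± 0.21, adjusted p = 0.0116 at cXENp3), as was the difference between the changes from ESC to cXENp3 (-1.87 ± 0.30, adjusted p = 0.00537).

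Of the scaffold subunits, Mta3 had 50.5, 52.2, 46.6 and 59.2 FPKM in ESCs and 29.9, 39.4, 29.6 and 30.4 FPKM at cXENp1. It had 78.3, 50, 27.8 and 27.5 FPKM at cXENp3 and 34.8 and 37.1 FPKM in XENB1 and XEN5. The KO lines at cXENp3 were the lowest of all 14 libraries and WT3 at cXENp3 the highest. Mta3 was lower in KO than in Zfp281-present lines at cXENp3 (-1.15 ± 0.24, adjusted p = 0.00446), and its change from ESC differed between them (-1.18 ± 0.34, adjusted p = 0.0334). Mta1 was lower there too (-0.77 ± 0.25, adjusted p = 0.0314), with a like difference in ESCs that was not called (-0.79 ± 0.25, adjusted p = 0.113). From ESC to cXENp3 Mta1 changed by 0.09 ± 0.25 in KO lines and 0.07 ± 0.25 in Zfp281-present lines. Mta2 was called in no comparison. Rbbp7, a histone-binding WD40 protein that PRC2 also uses and the most abundant member, had 208, 202, 199 and 168 FPKM in ESCs and 216, 225, 255 and 342 at cXENp1. It had 144, 137, 243 and 352 FPKM at cXENp3 and 323 and 391.6 FPKM in XENB1 and XEN5. Both KO lines at cXENp3 and both XEN lines were above every ESC library, and the Zfp281-present lines at cXENp3 were below every ESC library. Rbbp7 was higher in KO lines at cXENp3 (1.05 ± 0.22, adjusted p = 0.00528), in XEN lines (0.88 ± 0.19, adjusted p = 0.00753) and in the difference of the changes (1.21 ± 0.32, adjusted p = 0.0255). Its row overlaps that of Txlng in the table, and strand use in counting is not given in the sources used here. Gatad2a, which ranged from 39.5 to 79.3 FPKM, and Gatad2b, from 6.79 to 13.98 FPKM, bridge the deacetylase and remodelling parts of NuRD and were called in no comparison.

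At the Cbx position of canonical PRC1, Cbx7 was lower and Cbx8 higher in KO lines at cXENp3 and in XEN lines. For Cbx7, the KO lines were already lower as ESCs. Cbx7 (XLOC_007200, chr15:79746237-79763076, mm9), the main Cbx protein of ESCs, had 80.4, 81.1, 35.6 and 30.5 FPKM in ESCs and 29.3, 20.4, 25.5 and 30.5 FPKM at cXENp1. At cXENp3 it had 49.4, 30.1, 23.2 and 17.7 FPKM, and XENB1 and XEN5 had 1.08 and 6.99 FPKM. In ESCs both KO lines were below both Zfp281-present lines, at cXENp1 the groups overlapped, and at cXENp3 both KO lines were lower again. Both XEN lines were under every other library. Cbx7 was lower in KO than in Zfp281-present ESCs (-1.27 ± 0.27, adjusted p = 0.0473), where 1 of 46 members was called higher (Hdac2, against 1.05% of all genes) and 1 lower (against 0.917%). That pair of calls was lost without WT3, Rescue3.34 or KO2.6 and with the prefix as a term (0 members), and quantile normalization left Cbx7 alone. Cbx7 was also lower in KO lines at cXENp3 (-0.90 ± 0.27, adjusted p = 0.0238, lost without WT3 or KO2.6) and in XEN lines (-3.69 ± 0.61, adjusted p = 0.00236), and it was higher in KO lines at cXENp3 than in XEN lines (2.39 ± 0.49, adjusted p = 0.0224). Its change from ESC to cXENp3 was not called in KO lines (-0.67 ± 0.27, adjusted p = 0.0623) or in Zfp281-present lines (-1.05 ± 0.27, adjusted p = 0.0933). Nor was the difference between these changes called. Cbx7 fell from ESC to cXENp1 (-0.96 ± 0.30, adjusted p = 0.0407, a call lost in 7 of 11 alternatives, no block among them), but KO2.6, whose libraries share 1 prefix, had 30.5 and 30.5 FPKM.

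Cbx8 (XLOC_004020, chr11:118899750-118902227, mm9), a Cbx paralog with an H3K27me3-reading chromodomain, had 0.563, 0.845, 0.916 and 0.454 FPKM in ESCs and 5.81, 4.62, 3.42 and 3.88 FPKM at cXENp1. At cXENp3 it had 0.578, 1.09, 6.54 and 8.97 FPKM, and XENB1 and XEN5 had 9.14 and 10.4 FPKM. It was under 1 FPKM in each ESC library, above 3 FPKM in all 4 lines at cXENp1, back near the ESC level at cXENp3 in WT3 and Rescue3.34, and higher still in both KO lines. Cbx8 was higher in KO lines at cXENp3 (2.25 ± 0.27, adjusted p = 0.000344) and in XEN lines (2.68 ± 0.24, adjusted p = 0.000156), and the change from ESC to cXENp3 differed between KO and Zfp281-present lines (2.28 ± 0.38, adjusted p = 0.00558). The table places Cbx2 next to Cbx8 on chromosome 11, with 7165 bp between them and no other row. Cbx2 rose from ESC to cXENp1 (1.14 ± 0.21, adjusted p = 0.00527), from 12.97, 13.4, 9.93 and 5.65 to 22.1, 26.7, 30.9 and 15.9 FPKM, and had 10.8, 8.47, 6.44 and 3.70 FPKM at cXENp3 and 5.08 and 5.84 FPKM in the XEN lines. It was not called in XEN lines (-0.77 ± 0.35, adjusted p = 0.116) or at cXENp3 (-0.84 ± 0.36, adjusted p = 0.0849). Cbx6, which lies 81473 bp from Cbx7 on chromosome 15, was lower in XEN lines (-0.60 ± 0.21, adjusted p = 0.0494).

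The Pcgf position decides which form of PRC1 is built. Pcgf5, a subunit of variant PRC1, had 5.50, 4.32, 6.73 and 3.01 FPKM in ESCs and 10.6, 11.6, 15.6 and 29.3 FPKM at cXENp1. It had 8.004, 5.998, 38.8 and 39.7 FPKM at cXENp3 and 112 and 64.2 FPKM in XENB1 and XEN5. WT3 and Rescue3.34 stayed under 12 FPKM at every stage, while both KO lines at cXENp3 stood above 38 FPKM and both XEN lines above 64 FPKM. Pcgf5 was higher in KO lines at cXENp3 (2.34 ± 0.35, adjusted p = 0.00101) and in XEN lines (3.90 ± 0.35, adjusted p = 0.000136), and the change from ESC differed (2.42 ± 0.50, adjusted p = 0.0114). It rose from ESC to cXENp1 as well (1.53 ± 0.48, adjusted p = 0.0393), a call lost in 6 of 11 alternatives, among them no block and leaving out any of the 4 lines. Pcgf6, the subunit of the variant form that represses germline genes in ESCs, had 29.2, 28.2, 29.7 and 30.4 FPKM in ESCs and 21.1, 22.4, 25.02 and 26.9 FPKM at cXENp1. It had 35.8, 27.5, 16.5 and 9.32 FPKM at cXENp3 and 21.1 and 17.4 FPKM in XENB1 and XEN5. The 4 ESC values lay close together, and the KO lines at cXENp3 were below all of them and below WT3 and Rescue3.34. Pcgf6 was lower in KO lines at cXENp3 (-1.27 ± 0.25, adjusted p = 0.0035) and in XEN lines (-0.59 ± 0.20, adjusted p = 0.0429, a call lost in most alternatives), with a different change from ESC (-1.33 ± 0.35, adjusted p = 0.026).

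Bmi1 (Pcgf4), a canonical subunit known for repressing Cdkn2a, had 1.11, 1.17, 4.43 and 4.91 FPKM in ESCs and 23.9, 13.5, 9.82 and 13.8 FPKM at cXENp1. It had 2.29, 5.79, 13.3 and 13.6 FPKM at cXENp3 and 15.9 and 21.6 FPKM in XENB1 and XEN5. All cXENp1 and XEN libraries were above all ESC libraries, and at cXENp3 both KO lines were above both Zfp281-present lines. It rose from ESC to cXENp1 (2.15 ± 0.48, adjusted p = 0.0111) and was higher in XEN lines (2.49 ± 0.50, adjusted p = 0.00567) and in KO lines at cXENp3 (1.62 ± 0.36, adjusted p = 0.00672). With the description prefix as a term, the calls at cXENp1 and in XEN lines were both lost. The KO lines already held 4.43 and 4.91 FPKM as ESCs against 1.11 and 1.17, a difference that was not called (1.41 ± 0.36, adjusted p = 0.0741). The change from ESC to cXENp3 was not called different (0.21 ± 0.51, adjusted p = 0.798). Pcgf2 (Mel18), its canonical paralog, was lower in KO lines at cXENp3 (-0.83 ± 0.25, adjusted p = 0.0236) and was not called in XEN lines (0.10 ± 0.27, adjusted p = 0.799). Its difference in ESCs was not called (-0.56 ± 0.25, adjusted p = 0.239), nor was its change from ESC to cXENp3 in KO lines (-0.14 ± 0.25, adjusted p = 0.662). Pcgf1, the partner of Kdm2b, fell from ESC to cXENp3 in KO lines (-1.15 ± 0.33, adjusted p = 0.0169), a call lost in 3 of 11 alternatives. It had 6.93, 8.55, 17.97 and 13.4 FPKM in ESCs and 9.22, 4.24, 6.20 and 6.63 FPKM at cXENp3. KO and Zfp281-present lines were not called different at cXENp3 (0.02 ± 0.33, adjusted p = 0.97). Pcgf3 was called in no comparison. Kdm2b, which brings variant PRC1 to CpG islands, ranged from 16.4 to 41.1 FPKM and was not called either.

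Of the Phc proteins, which join PRC1 complexes through their SAM domains, Phc1 was lower and Phc2 and Phc3 higher in KO lines at cXENp3. Phc1 (XLOC_017374, chr6:122267749-122290245, mm9) had 68.2, 61.8, 83.2 and 47.5 FPKM in ESCs and 17.8, 21.6, 20.5 and 18.1 FPKM at cXENp1. It had 171, 73.04, 33.8 and 14.9 FPKM at cXENp3 and 10.3 and 9.13 FPKM in XENB1 and XEN5. Every cXENp1 library was below every ESC library, WT3 at cXENp3 was the highest of all libraries, and both KO lines at cXENp3 were below every ESC library. Phc1 fell from ESC to cXENp1 (-1.67 ± 0.48, adjusted p = 0.0306) and was lower in XEN lines (-2.60 ± 0.25, adjusted p = 0.000221) and in KO lines at cXENp3 (-2.26 ± 0.45, adjusted p = 0.00364), and its change from ESC differed (-2.22 ± 0.63, adjusted p = 0.0336). Phc2 had 20.7, 18.6, 15.4 and 11.9 FPKM in ESCs and 51.3, 60.6, 49.4 and 47.96 FPKM at cXENp1. It had 16.5, 23.8, 38.96 and 41.8 FPKM at cXENp3 and 29.8 and 21.5 FPKM in XENB1 and XEN5. Each of the 4 lines was highest at cXENp1, and at cXENp3 both KO lines were above 38 FPKM and both Zfp281-present lines under 24 FPKM. Phc2 rose from ESC to cXENp1 (1.61 ± 0.30, adjusted p = 0.00557), was higher in KO lines at cXENp3 (0.99 ± 0.22, adjusted p = 0.0059) with a different change from ESC (1.49 ± 0.31, adjusted p = 0.0109), and was not called in XEN lines (0.60 ± 0.28, adjusted p = 0.12).

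Phc3, the least abundant of the family, had 1.62, 1.75, 2.54 and 0.983 FPKM in ESCs and 2.62, 1.22, 2.34 and 2.34 FPKM at cXENp1. It had 1.35, 1.67, 4.87 and 6.98 FPKM at cXENp3 and 2.58 and 3.497 FPKM in XENB1 and XEN5. The KO lines at cXENp3 were the highest of all libraries. Phc3 was higher there than in Zfp281-present lines (1.45 ± 0.33, adjusted p = 0.0074), with a difference of changes (1.47 ± 0.47, adjusted p = 0.0492) that was lost in 8 of 10 alternatives, the line as a block among them.

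Rybp and Yaf2 are homologs that take the place of Cbx in variant PRC1. They moved in opposite directions from ESCs to XEN lines and, in KO lines, from ESC to cXENp3. In WT3 and Rescue3.34 both were higher at cXENp3 than in ESCs, by 0.24 ± 0.24 for Rybp and 0.91 ± 0.23 for Yaf2, with neither called. Rybp had 31.2, 27.4, 39.9 and 25.4 FPKM in ESCs and 19.6, 20.1, 20.2 and 16.6 FPKM at cXENp1. It had 35.5, 33.8, 17.7 and 13.2 FPKM at cXENp3 and 17.6 and 19.5 FPKM in XENB1 and XEN5. Every ESC library was above every cXENp1, KO cXENp3 and XEN library. The fall from ESC to cXENp1 was not called (-0.65 ± 0.26, adjusted p = 0.087). Rybp was lower in KO lines at cXENp3 (-1.13 ± 0.24, adjusted p = 0.00537) and in XEN lines (-0.69 ± 0.24, adjusted p = 0.0495), and its change from ESC differed (-1.25 ± 0.34, adjusted p = 0.0302). Yaf2 (XLOC_007290, chr15:93114264-93167366, mm9) had 4.83, 3.71, 5.65 and 4.12 FPKM in ESCs and 31.2, 31.01, 17.3 and 17.3 FPKM at cXENp1. It had 7.60, 10.3, 28.6 and 22.7 FPKM at cXENp3 and 35.01 and 41.01 FPKM in XENB1 and XEN5. At cXENp1 WT3 and Rescue3.34 stood above both KO lines, and at cXENp3 both stood below them. Yaf2 rose from ESC to cXENp1 (2.13 ± 0.40, adjusted p = 0.00583) and was higher in XEN lines (2.81 ± 0.25, adjusted p = 0.000137) and in KO lines at cXENp3 (1.43 ± 0.23, adjusted p = 0.00155), while its change from ESC differed (1.27 ± 0.33, adjusted p = 0.0253). The difference at cXENp1 was not called (-0.81 ± 0.23, adjusted p = 0.197).

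Of the ligase subunits themselves, Rnf2 had 61.3, 45.6, 95.9 and 77.4 FPKM in ESCs and 92.4, 93.7, 79.2 and 50.1 FPKM at cXENp1. It had 74.2, 72.97, 60.2 and 34.8 FPKM at cXENp3 and 43.3 and 38.1 FPKM in XENB1 and XEN5. KO ESCs were above Zfp281-present ESCs and KO lines at cXENp3 below them. The change from ESC to cXENp3 differed (-1.37 ± 0.42, adjusted p = 0.0421), while neither stage alone was called (0.69 ± 0.29, adjusted p = 0.215 and -0.67 ± 0.29, adjusted p = 0.0917). Ring1 ranged from 4.88 to 11.3 FPKM and was called in no comparison. L3mbtl2, a partner of Pcgf6, was lower in XEN lines (-0.82 ± 0.24, adjusted p = 0.0279) and at cXENp1 (adjusted p = 0.0323), and its row overlaps that of Chadl.

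**Figure D3:**
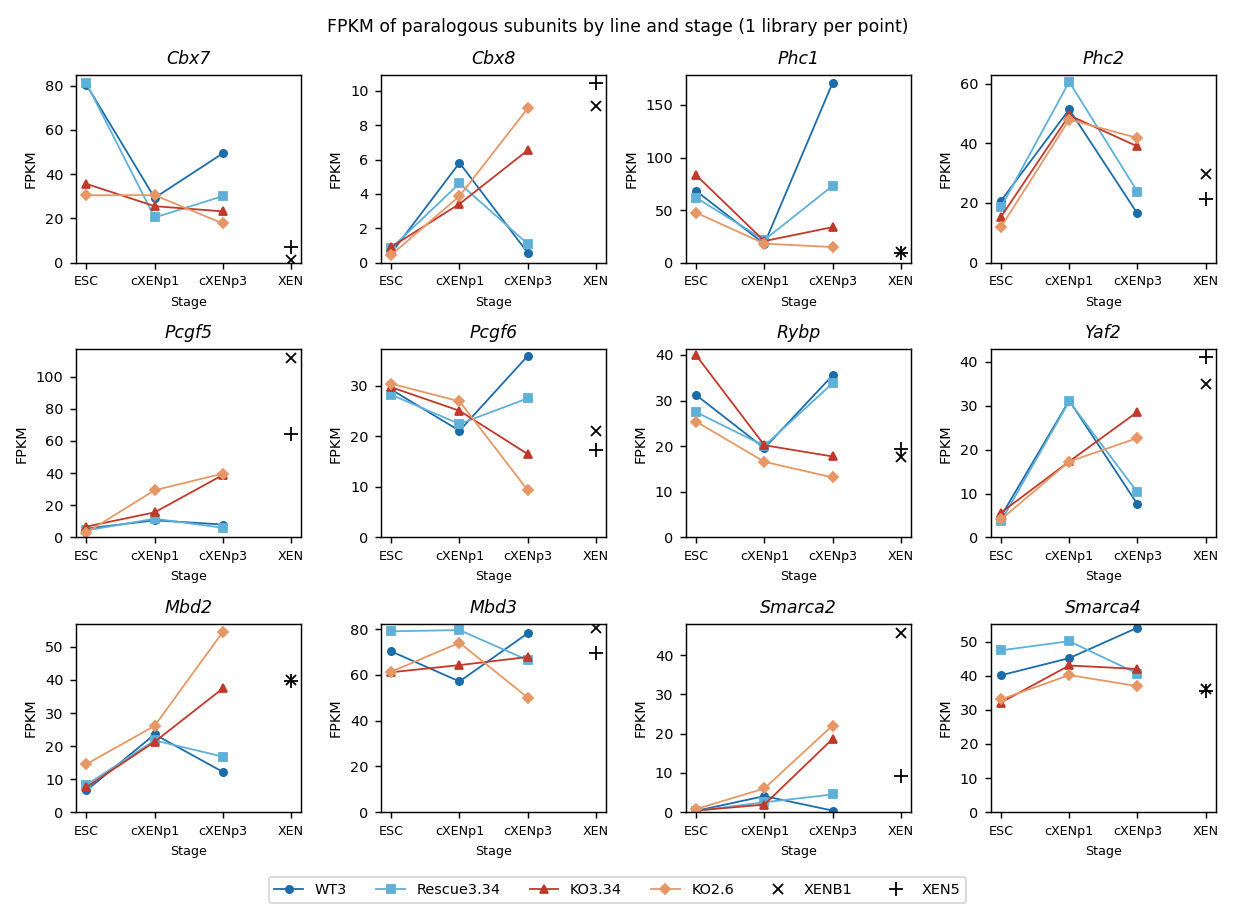
FPKM (y axis, linear) of 12 members by stage (x axis), with 1 point per library, lines joining the 3 stages of each ESC line, and crosses for XENB1 and XEN5. Cbx8, Phc2 and Yaf2 rise in all 4 lines at cXENp1 and at cXENp3 both KO lines lie above both Zfp281-present lines, while Mbd3 and Smarca4, called in no comparison, stay within 50.1 to 80.7 and 32.1 to 54.04 FPKM.

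Among BAF members, the ATPase Smarca2 had the largest called log2 differences at cXENp3 and in XEN lines. Smarca2 (BRM), the paralog that is low in ESCs, had 0.339, 0.332, 0.401 and 0.79 FPKM in ESCs and 4.08, 2.51, 1.93 and 6.03 FPKM at cXENp1. It had 0.401, 4.50, 18.7 and 22.1 FPKM at cXENp3 and 45.7 and 9.17 FPKM in XENB1 and XEN5. Every ESC library was under 1 FPKM, WT3 at cXENp3 was back at that level, and Rescue3.34, the library with the highest fibroblast marker sum, was not. Both KO lines at cXENp3 and both XEN lines were above all other libraries, although XENB1 and XEN5 differed widely from each other. Smarca2 was higher in KO lines at cXENp3 (2.94 ± 0.58, adjusted p = 0.00371) and in XEN lines (3.91 ± 0.54, adjusted p = 0.00103), and the difference of changes (2.69 ± 0.82, adjusted p = 0.0424) was lost in most alternatives. Its row overlaps that of 4931403E22Rik. Smarca4 (BRG1), the ATPase of ESC BAF, ranged from 32.1 to 54.04 FPKM and was called in no comparison.

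The core scaffold is made of Smarcc1 and Smarcc2. Smarcc1 (BAF155) had 71.7, 72.2, 56.9 and 41.9 FPKM in ESCs and 72.1, 84.7, 63.2 and 41.4 FPKM at cXENp1. It had 79.7, 63.8, 38.5 and 24.7 FPKM at cXENp3 and 26.3 and 37.4 FPKM in XENB1 and XEN5. KO2.6 was the lowest of the 4 lines at every stage, and both KO lines at cXENp3 were below both Zfp281-present lines. Smarcc1 was lower in KO lines at cXENp3 (-1.18 ± 0.28, adjusted p = 0.00802) and in XEN lines (-0.90 ± 0.28, adjusted p = 0.0354). Its change from ESC to cXENp3 in KO lines was not called (-0.65 ± 0.28, adjusted p = 0.0784), nor was the difference of changes. Smarcc2 (BAF170) had 7.49, 8.92, 5.28 and 3.78 FPKM in ESCs and 19.1, 17.4, 12.9 and 11.2 FPKM at cXENp1. It had 7.77, 10.2, 13.99 and 14.4 FPKM at cXENp3 and 14.3 and 14.5 FPKM in XENB1 and XEN5. Both XEN lines and both KO lines at cXENp3 lay between 13 and 15 FPKM, above every ESC library. Smarcc2 rose from ESC to cXENp1 (1.16 ± 0.30, adjusted p = 0.0193), was higher in XEN lines (1.12 ± 0.33, adjusted p = 0.0285) and changed differently from ESC to cXENp3 (1.36 ± 0.32, adjusted p = 0.0176). The difference at cXENp3 itself was not called (0.62 ± 0.23, adjusted p = 0.0509).

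Smarcd1 (BAF60A) had 76.3, 78.6, 55.1 and 48.7 FPKM in ESCs and 50.9, 59.6, 50.3 and 48.3 FPKM at cXENp1. It had 89.4, 56.2, 31.7 and 18.3 FPKM at cXENp3 and 25.2 and 37.9 FPKM in XENB1 and XEN5. KO lines at cXENp3 and XEN lines were below every other library. Smarcd1 was lower in KO lines at cXENp3 (-1.52 ± 0.28, adjusted p = 0.00256) and in XEN lines (-1.01 ± 0.28, adjusted p = 0.0216). Its paralog Smarcd3 (BAF60C), known from heart and muscle, was higher in XEN lines (0.98 ± 0.31, adjusted p = 0.0359) and lower at cXENp1 (-0.63 ± 0.21, adjusted p = 0.0484), and Smarcd2 fell at cXENp1 (-1.10 ± 0.23, adjusted p = 0.00934). Actl6a (BAF53A), the actin-like subunit of proliferating cells, had 95.7, 84.98, 84.5 and 141 FPKM in ESCs and 62.2, 77.2, 64.9 and 53.98 FPKM at cXENp1. It had 124, 87.8, 46.5 and 25.1 FPKM at cXENp3 and 34.5 and 51.2 FPKM in XENB1 and XEN5. Both KO lines at cXENp3 and both XEN lines were below every ESC library, and the KO lines were below both Zfp281-present lines. Actl6a was lower in KO lines at cXENp3 (-1.58 ± 0.33, adjusted p = 0.00456) and in XEN lines (-1.22 ± 0.28, adjusted p = 0.00971), with a different change from ESC (-1.86 ± 0.46, adjusted p = 0.0217).

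Arid1b, 1 of the alternative ARID subunits of canonical BAF, had 4.26, 4.46, 4.02 and 3.09 FPKM in ESCs and 8.48, 6.03, 8.86 and 6.89 FPKM at cXENp1. It had 4.72, 4.17, 9.03 and 8.23 FPKM at cXENp3 and 8.19 and 7.31 FPKM in XENB1 and XEN5. All cXENp1, KO cXENp3 and XEN values were above all ESC values, and WT3 and Rescue3.34 at cXENp3 were within or near the ESC range. Arid1b was higher in KO lines at cXENp3 (0.82 ± 0.24, adjusted p = 0.0212), in XEN lines (0.83 ± 0.25, adjusted p = 0.0307) and in the difference of changes (1.07 ± 0.34, adjusted p = 0.0488), the last lost in most alternatives. Arid1a had 35.7, 43.97, 18.6 and 18.96 FPKM in ESCs, 46.4, 34.03, 40.7 and 29.2 FPKM at cXENp3 and 14.3 and 11.3 FPKM in XENB1 and XEN5, and it rose from ESC to cXENp3 in KO lines (0.85 ± 0.25, adjusted p = 0.0179). Smarcb1, the core subunit and tumour suppressor SNF5, was lower in KO lines at cXENp3 (-0.78 ± 0.22, adjusted p = 0.0169). Brd9, which marks the non-canonical BAF form, was higher in XEN lines (0.79 ± 0.25, adjusted p = 0.0372), and Smarce1 rose at cXENp1 (0.80 ± 0.16, adjusted p = 0.00822). Dpf2, which ranged from 30.7 to 61.1 FPKM, and Arid2, from 8.05 to 18.03 FPKM, were called in no comparison.

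Paralog shares put these values on 1 scale. FPKM is scaled to length, so the levels of paralogs can be set beside each other, and each share is a gene's percent of the summed FPKM of the paralogs at its position, with no test. Yaf2 held 11.9% to 13.97% of the Rybp and Yaf2 sum in the 4 ESC libraries, 46.1% to 61.5% at cXENp1, 17.6% to 23.3% in Zfp281-present and 61.7% to 63.3% in KO lines at cXENp3, and 66.6% to 67.8% in XEN lines. Phc1 held 75.2% to 82.3% of the Phc sum in ESCs, 24.8% to 28.4% at cXENp1, 74.1% to 90.5% in Zfp281-present and 23.4% to 43.5% in KO lines at cXENp3, and 24.2% to 26.8% in XEN lines. At both positions the leading paralog of ESCs was no longer the leading one in KO lines at cXENp3 or in XEN lines. It had also lost the lead at cXENp1, to Phc2 in all 4 lines and to Yaf2 in all lines but KO3.34. Cbx7 held 66.9% to 68.4% of the summed FPKM of Cbx2, Cbx6, Cbx7 and Cbx8 in Zfp281-present ESCs and 50.6% to 51.8% in KO ESCs. It held 32.8% to 44.8% at cXENp1, and 52.5% to 55.0% in Zfp281-present and 36.96% to 45.4% in KO lines at cXENp3. In XEN lines it held 3.67% to 17.3%, while Cbx6 held 42.3% to 47.8% and Cbx8 25.9% to 31.2%. At cXENp1 Cbx2 held 23.3% to 42.8% of this sum, above its 9.60% to 14.1% in ESCs. Pcgf5 held 3.27% to 6.42% of the Pcgf sum in ESCs, 6.49% to 6.65% in Zfp281-present and 31.8% to 35.2% in KO lines at cXENp3, and 39.5% to 55.5% in XEN lines.

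In NuRD and BAF, the paralog with the larger share changed in some libraries only. Mbd2 held 8.56% to 19.2% of the Mbd2 and Mbd3 sum in ESCs, 13.5% to 20.2% in Zfp281-present and 35.6% to 52.1% in KO lines at cXENp3, and 33.2% to 36.3% in XEN lines, so that it passed Mbd3 in KO2.6 alone. Smarca2 held 0.695% to 2.33% of the ATPase sum in ESCs, 0.738% to 9.98% in Zfp281-present and 30.8% to 37.4% in KO lines at cXENp3, and 20.6% to 55.8% in XEN lines, where it passed Smarca4 in XENB1. Smarcc2 went from 8.29% to 11% in ESCs to 26.7% to 36.9% in KO lines at cXENp3 and 28.00% to 35.3% in XEN lines. Hdac1 led Hdac2 in WT3 and Rescue3.34 ESCs and in all 4 lines at both later stages, whereas Hdac2 led in both KO ESC libraries and in XENB1 and XEN5, with 57.3% to 59.4% of their sum in the XEN lines. Smarcd1 led its position except in KO2.6 at cXENp3 and in XENB1, where Smarcd2 held 46.1% and 35.7% against 36.3% and 32.9% for Smarcd1. Smarcd3 held 7.07% to 10.6% in ESCs, 14.6% to 17.6% in KO lines at cXENp3 and 22.1% to 31.4% in XEN lines. Arid1a held 53.3% to 70.8% of the ARID sum in ESCs and 33.4% to 42.7% in XEN lines, and in XEN5 alone Arid2 passed it, with 45.01%. Chd3 held 1.72% to 4.92% of the Chd sum in ESCs and 15.4% to 19.5% in XEN lines, and Ring1 6.80% to 19.9% and 20.1% to 20.4% of its sum with Rnf2.

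**Figure D4:**
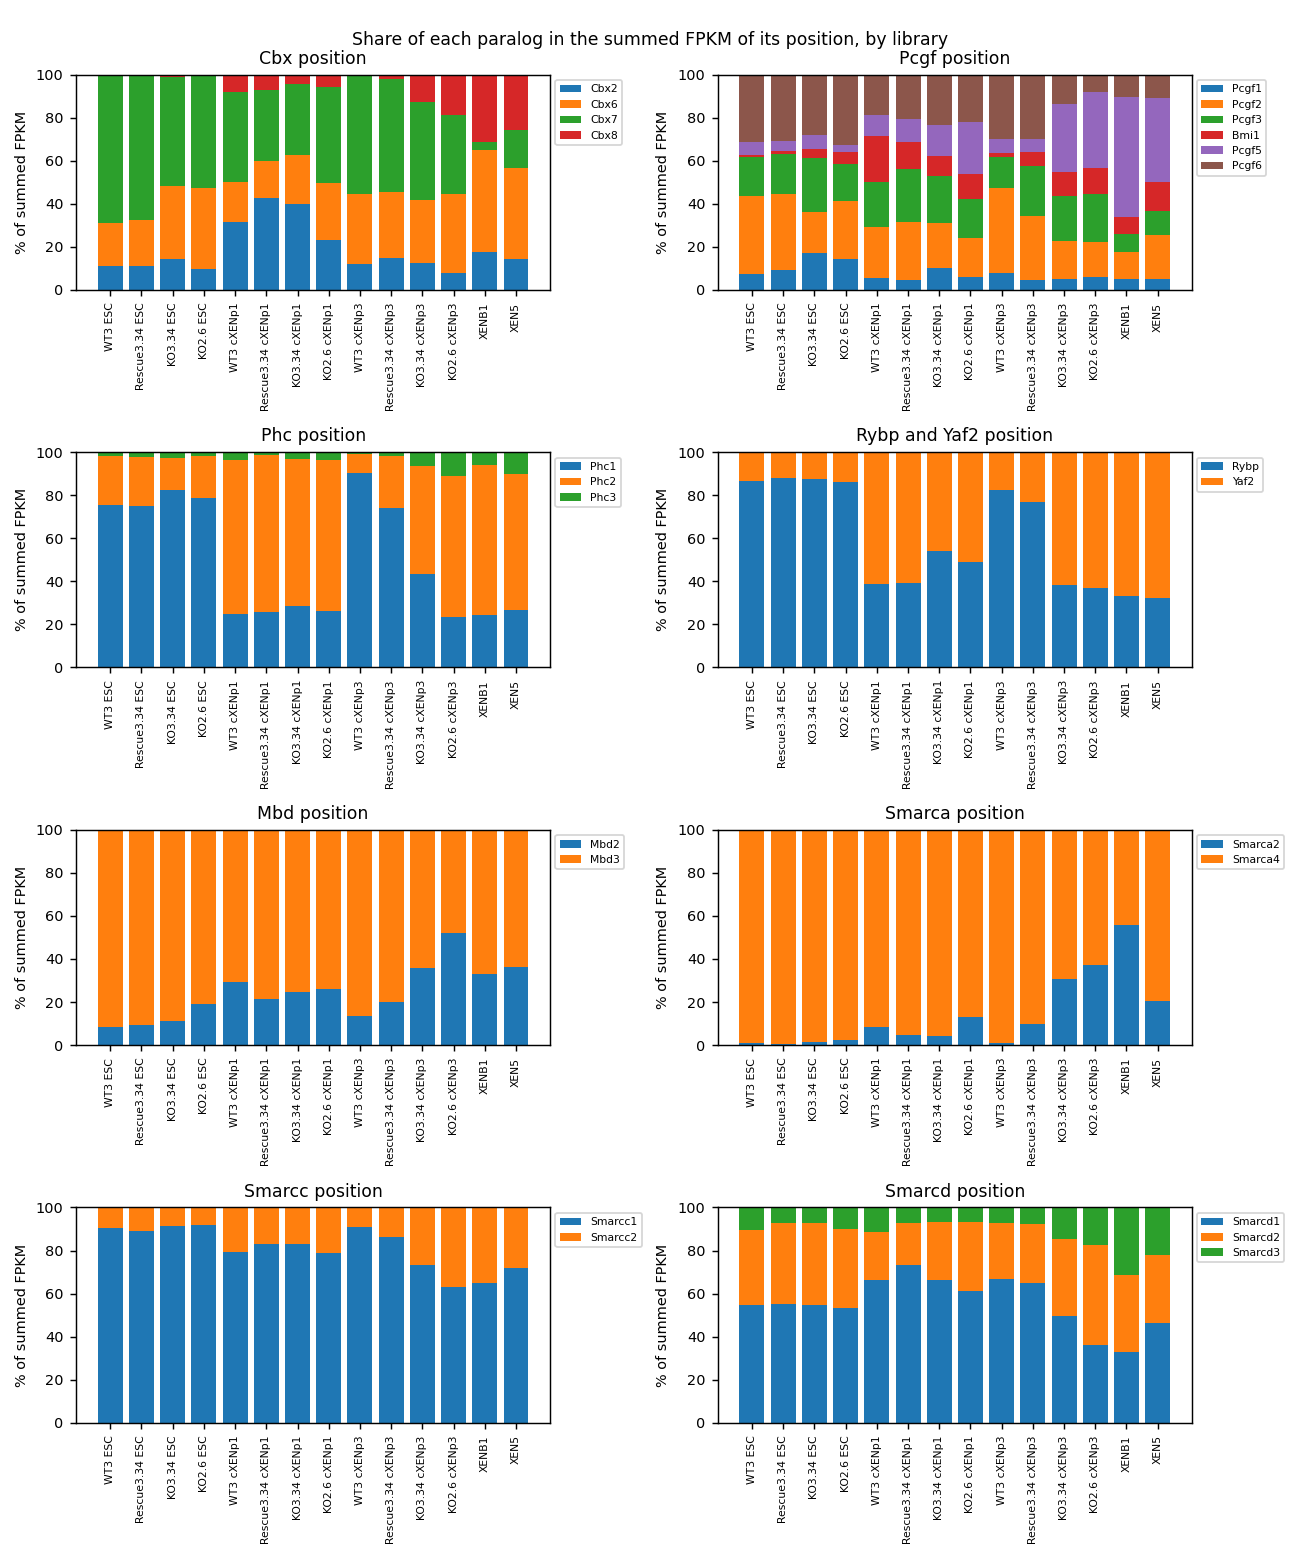
Percent of the summed FPKM at each position (y axis, from 0 to 100) held by each paralog, in stacked bars of 1 library each, for 8 positions. Yaf2 and Phc2 hold the larger share in both KO lines at cXENp3 and in the XEN lines, and Rybp and Phc1 in ESCs and in both Zfp281-present lines at cXENp3. At cXENp1 Yaf2 and Phc2 hold it too, except Yaf2 in KO3.34.

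From ESC to cXENp1, with the line as a block, 11 of 46 members rose (14.7% of all genes tested were called higher) and 5 fell (13.8% of all genes), a share of 34.8% against 28.5% of all genes. Risers were Chd3, Mbd2, Bmi1, Pcgf5, Cbx2, Cbx8, Phc2, Yaf2, Smarcc2, Smarce1 and Arid1b, and Cbx7, Phc1, L3mbtl2, Smarcd2 and Smarcd3 fell. Quantile normalization gave 12 and 3. In the same libraries all 6 ESC markers fell, to sums of 60.7 to 106 FPKM, while 1 of 8 fibroblast markers, 1 of 7 XEN markers and 2 of 3 neural progenitor markers rose. The XEN marker sum was 370.0 FPKM in KO2.6 and 35.7 to 47.9 FPKM in the other lines. The count of members was 3 without Rescue3.34 and 4 without KO3.34, while over all genes 1244 and 1285 were called, against 3760 with all lines. With the prefix as a term, a setting chosen after seeing the data, only Pcgf5 was called, and calls over all genes fell as well. In that fit the ESC level rested on KO2.6, the only line with an XH ESC library. Pcgf5 had 3.01 FPKM in KO2.6 ESCs and 29.3 FPKM in KO2.6 at cXENp1. Called without KO2.6 were 13 members, of which 12 had the same sign within KO2.6, where both stages share a prefix (90.4% over all genes). Between KO and Zfp281-present lines at cXENp1, limma called 0 members higher (0.364% of all genes) and 0 lower (0.121% of all genes), with 6 members at an unadjusted p under 0.05. In this comparison 1 member was called without KO3.34, and quantile normalization turned the split over all genes from 48 and 16 to 64 and 36.

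From ESC to cXENp3 the course of the lines differed. In KO lines 14 of 46 members rose (25.5% of all genes tested were called higher) and 11 fell (22.3% of all genes), a share of 54.3% against 47.8%, and 6 of 8 fibroblast markers rose too. Quantile normalization gave 13 and 14 members and turned the split over all genes from 3366 and 2941 to 2805 and 3555. Without KO2.6 the count was 13, all with the same sign within KO2.6 (93.8% over all genes). In Zfp281-present lines limma called 0 members higher (0.561% of all genes) and 0 lower (0.735% of all genes), with 7 members at an unadjusted p under 0.05, among them Cbx7 (-1.05 ± 0.27, adjusted p = 0.0933) and Yaf2 (0.91 ± 0.23, adjusted p = 0.0933). These comparisons share no libraries with each other, but each shares libraries with the test of their difference. That test called 9 of 46 members with a more positive change in KO lines (13.7% of all genes tested) and 7 with a more negative one (8.85% of all genes), a share of 34.8% against 22.6%, with a median of 0.04 against 0.06. PRC1 gave 9 of these 16 members, BAF 4 and NuRD 3. Quantile normalization gave 6 and 7 members and turned the split over all genes from 1807 and 1168 to 1403 and 1527. None was called without WT3 or without Rescue3.34, fewer were called without KO2.6, and the count was 8 with the prefix as a term. Over all genes the number of calls fell in each of these settings too. Cbx8, Pcgf5, Hdac2 and Rybp were called in every setting in which they were tested except those without WT3 or Rescue3.34.

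KO lines at cXENp3 were set beside the XEN lines last. Higher in KO lines were 2 of 46 members (2.64% of all genes tested), Cbx7 (2.39 ± 0.49, adjusted p = 0.0224) and Arid1a (1.37 ± 0.25, adjusted p = 0.0129), and 0 were lower (1.48% of all genes, with 11 members at an unadjusted p under 0.05 in either direction by limma). Arid1a in both KO lines at cXENp3 was more than 29 FPKM against 14.3 and 11.3 FPKM in the XEN lines. Both calls were lost without WT3 or Rescue3.34, which enter through the shared spread (0 members each). Both were also lost without KO3.34, where 1 other member was called lower, and 1 of the pair was called without KO2.6, XENB1 or XEN5. In the same comparison 4 of 6 ESC markers were higher in KO lines and 0 of 7 XEN markers were called (0 at an unadjusted p under 0.05). Quantile normalization kept 2 members and turned the split over all genes from 353 and 198 to 251 and 252.

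Another 36 genes for subunits and partners of the same complexes, which are not members, were counted beside them. In XEN lines against ESCs 3 of 31 tested were higher (22.2% of all genes) and 9 lower (19.7%), and at cXENp3, between KO and Zfp281-present lines, 4 of 33 were higher (22.9% of all genes) and 13 lower (19.0%). Fbrs, a partner of PRC1 variants with Auts2 (1.35 ± 0.32, adjusted p = 0.0114 in XEN lines), was higher in both comparisons. The values of Auts2 itself went the other way. It had 4.23, 4.25, 1.96 and 0.548 FPKM in ESCs, 4.27, 2.76, 1.43 and 0.820 FPKM at cXENp3, and 0.425 and 0.239 FPKM in XENB1 and XEN5. Fbrsl1 had 17.6, 21.8, 13.9 and 7.17 FPKM in ESCs and 8.60 and 6.54 FPKM in XENB1 and XEN5. Rbbp4, the paralog of Rbbp7, was lower in both (-1.31 ± 0.21, adjusted p = 0.00226 in XEN lines, -0.84 ± 0.20, adjusted p = 0.00893 at cXENp3), with 108, 94.3, 138 and 125 FPKM in ESCs and 42.6 and 49.2 FPKM in XENB1 and XEN5. Wdr5 (-1.65 ± 0.25, adjusted p = 0.00156 in XEN lines) and Gltscr1l, a subunit of the Brd9 form of BAF, were lower in both as well. From ESC to cXENp1, 4 of 33 rose (14.7% of all genes) and 6 fell (13.8%).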

How the data were processed

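PolyA RNA-seq of 14 mouse cell libraries was deposited as 1 table of 23174 gene rows. The submitters' processing notes name STAR 2.5.3, Cufflinks 2.1.1 and build mm9, and the authors deposited the values as FPKM, a unit taken here from these tools and from the values. The table holds no counts, so depth is unknown and no interval was computed. Values were used as deposited, as log2(FPKM + 1), for genes at 1 FPKM or more in at least 2 fitted libraries. Models were fitted with limma 3.58.1 (eBayes with trend) in R 4.3.3, with calls at an adjusted p (Benjamini-Hochberg, over all genes tested) under 0.05, in 9 comparisons. Every adjusted p comes from limma. The fits were run on simulated data with planted changes and independent noise in each library. No line or prefix effect was simulated, so that run cannot say how such effects bear on the p-values. The stages of a line are paired because they come from the same line. The line was a block from ESC to cXENp1 and an alternative elsewhere. Nothing says that libraries came from separate cultures, so p-values rest on the spread between these lines. Where stages were fitted together, this spread was pooled over them.

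The members and lists were chosen with earlier results of these data known. All members are named, and values in every library are given for Mbd3, Cbx7 and members called with an absolute log2 difference of at least 1 between KO and Zfp281-present lines at cXENp3, in the difference of changes, or in XEN lines against ESCs. From the planned list of other subunits, 1 gene is not reported here and entered no share or count. Coordinates are those of the table, counted from 1. Lists of trophoblast genes (Cdx2, Elf5, Hand1, Tpbpa and Ascl2, which summed to 0.365 to 4.68 FPKM) and neural progenitor genes (Pax6, Sox1 and Nes, 6.48 to 55.1 FPKM) served as checks of other cell types. Promoters came from RefSeq (GRCm38.p6) by symbol, and no sequence was read by mm9 coordinates. Alternatives were a pseudocount of 0.1, a filter at any value above 0, a filter at a mean of 5 FPKM or more, quantile normalization, eBayes without trend, the block, the description prefix as a term, and leaving out each line.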

Additional observations from a re-analysis of the deposited data

Results flagged for a closer look

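The change from ESC to cXENp3 differed between KO and Zfp281-present lines in 16 members, by limma's interaction test of the difference itself (adjusted p under 0.05). The values are the log2 change in KO lines minus that in WT3 and Rescue3.34. In PRC1 they were 2.42 for Pcgf5, 2.28 for Cbx8, 1.49 for Phc2, 1.47 for Phc3 and 1.27 for Yaf2, and -2.22 for Phc1, -1.37 for Rnf2, -1.33 for Pcgf6 and -1.25 for Rybp. In BAF they were 2.69 for Smarca2, 1.36 for Smarcc2, 1.07 for Arid1b and -1.86 for Actl6a. In NuRD they were 1.21 for Rbbp7, -1.18 for Mta3 and -1.87 for Hdac2. None of the 16 was called without WT3 or without Rescue3.34.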

How the results depend on the processing

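Over 106 called member differences and their alternatives, 838 of 1128 values stayed past the threshold, 290 lost it and 0 changed sign. Leaving out each line in turn gave 8 to 25 called members for XEN lines against ESCs (22 with all lines), 3 to 13 for ESC to cXENp1 (16), 13 to 24 for ESC to cXENp3 in KO lines (25), 0 to 0 in Zfp281-present lines (0), 0 to 7 for KO against Zfp281-present ESCs (2), 0 to 1 at cXENp1 (0), 2 to 27 at cXENp3 (23), 0 to 18 for the difference of changes (16) and 0 to 1 for KO lines at cXENp3 against XEN lines (2). A lone line in a group was assumed to vary like the other groups. The calls over all genes also moved when a line was left out, so these shifts in count are not particular to the members. In KO against Zfp281-present ESCs the count was 0 with any value above 0, 0 without trend, 1 under quantile normalization and 0 with the prefix as a term. For other comparisons the prefix as a term was chosen after seeing the data, and the count was 1 from ESC to cXENp1 and 8 for the difference of changes, while XEN lines against ESCs gave 17 and ESC to cXENp3 in KO lines 21. Of those 17, 13 were among the 22 called without the term, and of the 21, 19 were among the 25. For the difference of changes, 7 of the 8 were among the 16. In the comparisons that gave 1, 17 and 21, the ESC level with this term rested on the KO2.6 ESC library, the only XH one. For the difference of changes the filter at any value above 0 gave 11, and for KO lines at cXENp3 against XEN lines a pseudocount of 0.1 and eBayes without trend gave 3 each. From ESC to cXENp1 the filter at any value above 0 gave 11. Without the replicate block (the line, which pairs its stages) 15 members were called from ESC to cXENp1, of which 13 were among the 16 called with it. With the block the count was 26 from ESC to cXENp3 in KO lines, of which 24 were among the 25 called without it, 0 in Zfp281-present lines and 16 for the difference of changes, of which 15 were among the 16 called without it. Quantile normalization shifted the median of all genes from 0.01 to -0.10 between KO and Zfp281-present lines at cXENp3, from 0 to -0.15 in KO lines from ESC to cXENp3 and from 0.06 to -0.07 in the difference of changes. The causes of these shifts were not tested. The depth is unknown, which leaves the precision of values near 1 FPKM (Cbx8, Phc3 and Smarca2 in ESCs) unstated.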

Other observations

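The summed level of the 46 members ranged from 1482 FPKM in KO2.6 at cXENp3 to 2143 FPKM in WT3 at cXENp3, and the 4 ESC libraries lay between 1728 and 1841 FPKM. As a percent of each library's FPKM sum, the members took 0.241% to 0.264% in ESCs, 0.345% to 0.410% at cXENp1, 0.309% and 0.334% in Rescue3.34 and WT3 at cXENp3, 0.284% and 0.288% in the KO lines at cXENp3, and 0.282% and 0.285% in XENB1 and XEN5. The FPKM sum itself was lower at cXENp1 (424406 to 520485) than in ESCs (678479 to 718138). BAF subunits summed to 348 FPKM in KO2.6 and 422 FPKM in KO3.34 at cXENp3, 428 and 422 FPKM in XENB1 and XEN5, and 464 to 591 FPKM in ESCs. These sums were not tested.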
